A study of Mus musculus with 6 samples.

Results

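The 10 genes described here encode the cyclins that drive G1 and most of the inhibitors that restrain them: the D-type cyclins Ccnd1, Ccnd2 and Ccnd3, the E-type cyclins Ccne1 and Ccne2, the Cip/Kip inhibitors Cdkn1b (p27) and Cdkn1c (p57), and the INK4 genes Cdkn2a (p16 and ARF), Cdkn2b (p15) and Cdkn2c (p18). They were taken by symbol from a table of 21899 genes, in which all 10 were found. The table holds polyA RNA sequencing of whole liver from wild-type C57BL6J mice kept for 6 weeks either on a methionine- and choline-deficient diet (MCD, 3 libraries), used to model steatohepatitis, or on a diet sufficient in both (MCS, 3 libraries). Genotype and strain are shared by the diets, and the age and sex of the mice and any pooling of livers are not given in the sources used here. The labels do not say that the libraries of a diet came from separate mice, so a p-value here measures only how these samples spread, and that spread could be technical.

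D-type cyclins are made in response to growth signals, bind the kinases CDK4 and CDK6 and start the phosphorylation of the retinoblastoma (RB) protein. E-type cyclins then activate CDK2, and the E2F factors released from RB switch on the genes of DNA replication. INK4 proteins block CDK4 and CDK6, whereas Cip/Kip proteins bind cyclin-kinase complexes and mainly restrain CDK2. In the adult liver most hepatocytes are quiescent, and cyclin D1 is the cyclin best known for its induction when hepatocytes re-enter the cycle after partial hepatectomy.

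Total counts were 18443357 to 21285045 in the MCD libraries and 16615469 to 21322771 in the MCS libraries. Levels are given as CPM, counts relative to the library size scaled by TMM (a factor that lines up the bulk of the genes), where 3 counts equal 0.104 to 0.136 CPM in MCD libraries and 0.165 to 0.227 CPM in MCS libraries. A difference between diets is a log2 fold change, MCD over MCS, with its SE, estimated on counts by edgeR's quasi-likelihood test (n = 3 per diet), with p adjusted by Benjamini-Hochberg over 12599 tested genes and a threshold of 0.05. Levels of different genes are compared in TPM, the authors' unit per transcript length. All 8 hepatocyte markers examined were detected, with summed levels of 58485 to 99970 CPM in MCD libraries and 96556 to 123420 CPM in MCS libraries. Replicate 3 stood apart in both diets: the 8 sinusoidal endothelial markers summed to 365 CPM in MCD replicate 3 against 66.8 and 94.4 CPM in the other MCD libraries, and to 412 CPM in MCS replicate 3 against 106 and 144 CPM in the other MCS libraries.

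On the MCD diet Ccnd1 rose 7.51-fold and Ccnd3 fell, and the other 6 tested genes of the group did not pass the test. Cdkn2c, the most abundant of the 3 INK4 members, lay just outside the threshold, at an adjusted p of 0.0508. Cdkn2a and Cdkn2b were too low for the count filter, with at most 12 counts in any library. In all, 1 of 8 tested members rose and 1 fell, against 14.8% of all tested genes that rose and 9.97% that fell (24.7% in either direction). For 3 of the 8, Ccnd1, Ccnd3 and Cdkn2c, no MCD library lay within the MCS range, as was the case for 45.3% of all tested genes. The median log2 fold change of the 8 was 0.61, against 0.01 for all tested genes.

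**Figure D1:**
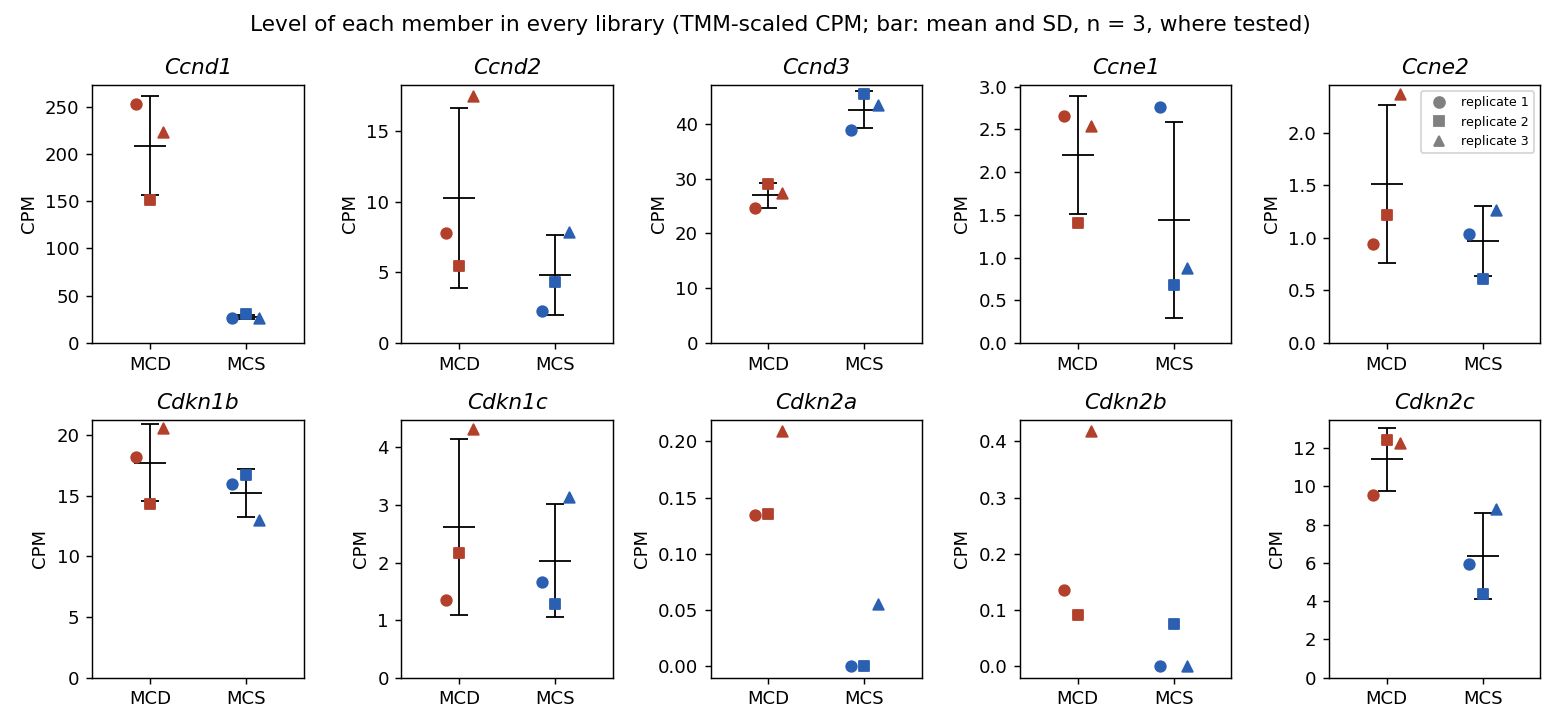
Level of each of the 10 genes in CPM (vertical axes start at or just below 0), with MCD libraries in red on the left, MCS libraries in blue on the right and a marker shape per replicate; black bars are the mean and SD of 3 libraries, drawn for the 8 tested genes. Ccnd1 lies between 151 and 253 CPM in MCD libraries and between 26.6 and 30.3 CPM in MCS libraries. Ccnd3, Cdkn2c and the untested Cdkn2a and Cdkn2b do not overlap between the diets either, whereas the remaining genes do.

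The order of the genes by level differed at its top. In MCD livers Ccnd1 was highest, at 125 ± 44.9 TPM, followed by Ccnd3 (33.1 ± 9.01 TPM), Cdkn2c (20.0 ± 4.70 TPM) and Cdkn1b (15.3 ± 4.10 TPM). In MCS livers Ccnd3 was highest, at 30.1 ± 3.15 TPM, followed by Ccnd1 (10.2 ± 0.544 TPM), Cdkn1b (8.19 ± 0.703 TPM) and Cdkn2c (7.40 ± 3.47 TPM; SD, n = 3 throughout). The ranges of Cdkn2c and Cdkn1b overlapped in both diets, so their order is not settled. Below them came Cdkn1c (4.37 ± 3.87 TPM in MCD and 1.74 ± 0.765 TPM in MCS), Ccnd2 (3.97 ± 3.03 and 1.37 ± 0.448 TPM), Ccne1 (2.48 ± 1.07 and 0.982 ± 0.769 TPM) and Ccne2 (1.19 ± 0.800 and 0.458 ± 0.183 TPM), and each of these neighbours overlapped in range with the next in both diets. Cdkn2a and Cdkn2b were lowest, at 0.118 to 0.779 TPM in MCD libraries and 0 to 0.093 TPM in MCS libraries. TPM is scaled to a fixed total per library, so a TPM value of one diet is not directly comparable with that of the other.

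Ccnd1 (ENSMUSG00000070348), which encodes cyclin D1, had 252.5, 151 and 223 CPM in MCD replicates 1 to 3, against 26.6, 30.3 and 26.6 CPM in MCS replicates 1 to 3. Every MCD library lay several-fold above every MCS library, and the spread was wide among MCD and narrow among MCS libraries. The mean was 209 ± 52.4 CPM in MCD and 27.8 ± 2.14 CPM in MCS livers (SD, n = 3 each). The log2 fold change was 2.91 ± 0.22 (adjusted p = 0.000193), higher than that of 97.5% of tested genes. It stayed between 2.75 and 3.53, with adjusted p of at most 0.00308, in each of 17 other settings, each left-out library and each scaling among them. These counts, 15357 in MCD and 1345 in MCS libraries, are far above the floor.

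Ccnd3 (ENSMUSG00000034165), which encodes cyclin D3, had 24.6, 29.0 and 27.3 CPM in MCD replicates 1 to 3, against 38.8, 45.5 and 43.5 CPM in MCS replicates 1 to 3. Each MCD library was below each MCS library, with means of 27.0 ± 2.25 CPM in MCD and 42.6 ± 3.42 CPM in MCS livers (SD, n = 3 each). Ccnd3 fell by 0.66 ± 0.13 on the log2 scale (adjusted p = 0.00884) relative to the bulk of the genes, but with library size alone its log2 fold change was −0.11 ± 0.15 (adjusted p = 0.568) and on the log2(TPM + 1) scale it was 0.11 ± 0.19 (adjusted p = 0.647). Those scalings moved the median of all tested genes to 0.57 and 0.53, so Ccnd3 lay below the median gene in each. TPM per CPM of Ccnd3, relative to the median gene of the library, was 1.36, 1.49 and 1.66 in MCD replicates 1 to 3. In MCS replicates 1 to 3 it was 1.35, 1.44 and 1.35, and the span exceeded that of 79.3% of tested genes. The TPM value of Ccnd3 thus also reflects the length correction. Without MCD replicate 1 the change of Ccnd3 was −0.60 ± 0.16 and did not pass (adjusted p = 0.0506).

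The promoters of Ccnd3, the called member whose promoter the RefSeq table held, are shown because its count sums transcripts from separate starts. Each runs from 250 bases before to 50 after a start (GRCm38.p6, plus strand), and capitals mark GC boxes (GGGCGG, either strand), which 35.7% of 32851 promoters in the table hold.
Ccnd3 start at chr17:47504801-47505100: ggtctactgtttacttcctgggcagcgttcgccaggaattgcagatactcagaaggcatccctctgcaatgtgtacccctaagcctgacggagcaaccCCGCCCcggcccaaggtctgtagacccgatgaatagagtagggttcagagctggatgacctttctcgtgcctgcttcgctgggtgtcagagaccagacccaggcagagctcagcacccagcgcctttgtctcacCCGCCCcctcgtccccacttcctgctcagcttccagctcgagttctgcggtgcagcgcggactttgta
Ccnd3 start at chr17:47593217-47593516: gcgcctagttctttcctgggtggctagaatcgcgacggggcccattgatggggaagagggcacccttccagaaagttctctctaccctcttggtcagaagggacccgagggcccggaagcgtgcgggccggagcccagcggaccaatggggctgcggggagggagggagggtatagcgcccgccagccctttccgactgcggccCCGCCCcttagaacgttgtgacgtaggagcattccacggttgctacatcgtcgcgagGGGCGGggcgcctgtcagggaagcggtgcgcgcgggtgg
Each start had 2 GC boxes. Neither held an E2F word (TTTGGCGC, TTTCCCGC, TTTGCCGC or TTTCGCGC), a CRE (TGACGTCA) or an AP-1 word (TGANTCA), which were found on either strand in 2.26%, 1.79% and 7.81% of the promoters. The promoter of Ccnd1 is not shown.

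Ccnd2 (ENSMUSG00000000184), which encodes cyclin D2, had 7.78, 5.47 and 17.5 CPM in MCD replicates 1 to 3, against 2.24, 4.31 and 7.83 CPM in MCS replicates 1 to 3. MCS replicate 3 reached the level of MCD replicate 1, and replicate 3 was the highest library of each diet. The log2 fold change of 1.10 ± 0.55 did not pass (adjusted p = 0.181), and it was 0.46 without MCD replicate 3. Without replicate 3 of both diets, a setting chosen after seeing the data, it was 1.04 ± 0.35 and passed (adjusted p = 0.0477). The TPM of Ccnd2 should be read with care: TPM per CPM, relative to the median gene of the library, was 1.27 in MCS replicate 1 and 0.421 to 0.471 in the other 5 libraries, a span of 3.01-fold that exceeded that of 98.7% of tested genes (median 1.04).

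As a share of D-type cyclin TPM, which any scaling of a library leaves as it is, Ccnd1 made up 83.1%, 70.6% and 75.3% in MCD replicates 1 to 3, against 25.6%, 24.4% and 23.4% in MCS replicates 1 to 3. Ccnd3 made up 15.3%, 27.9% and 21.1% in MCD replicates 1 to 3, against 70.6%, 73.5% and 72.5% in MCS replicates 1 to 3. The leading D-type cyclin was thus Ccnd1 in every MCD library and Ccnd3 in every MCS library. Ccnd2 made up 1.51% to 3.59% in MCD and 2.05% to 4.08% in MCS libraries, which overlap. The ratio of Ccnd1 to Ccnd3 in TPM was 5.45, 2.53 and 3.56 in MCD and 0.362, 0.332 and 0.323 in MCS replicates 1 to 3. The log2 ratio of their counts differed by 3.54 between the diets (exact two-sided permutation test, p = 0.1, n = 3 per diet, the smallest p that 3 against 3 libraries allow). Their CPM did not overlap between the diets and moved in opposite directions, so this p was fixed by the choice of genes.

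**Figure D2:**
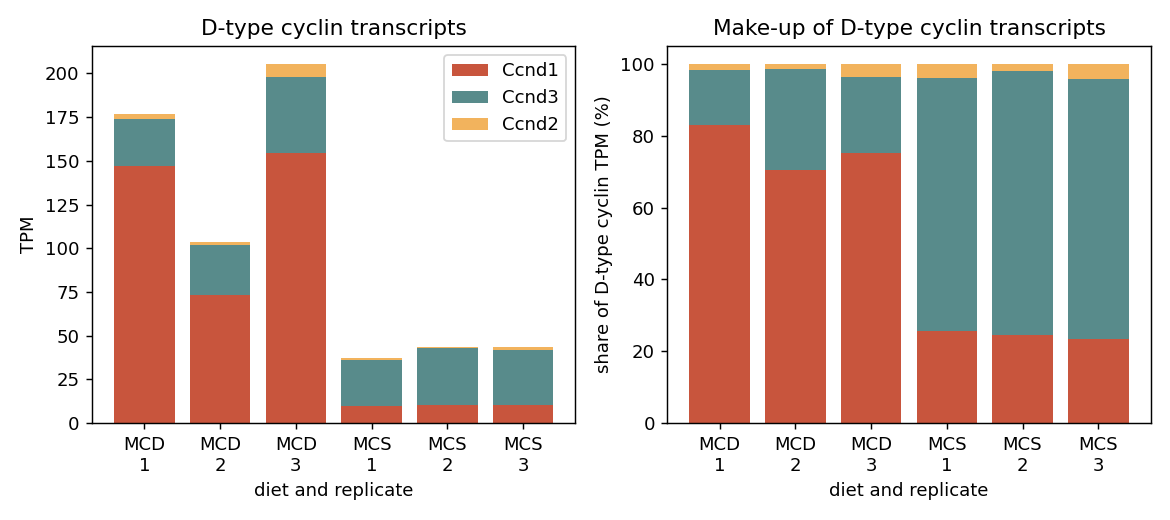
D-type cyclin transcripts in each library, as TPM (left) and as shares of their sum (right), with MCD libraries left of MCS libraries; each bar is 1 library. The sum is 104 to 205 TPM in MCD libraries and 37.5 to 43.8 TPM in MCS libraries, and Ccnd1 holds 70.6% to 83.1% of it in MCD bars and 23.4% to 25.6% in MCS bars. TPM sums of the 2 diets are not directly comparable. On the log2(TPM + 1) scale the median of all tested genes was itself 0.53 higher in MCD.

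The E-type cyclins were low and neither passed. Ccne1 (ENSMUSG00000002068) had 2.65, 1.40 and 2.54 CPM in MCD replicates 1 to 3, against 2.76, 0.680 and 0.883 CPM in MCS replicates 1 to 3. MCS replicate 1 was the highest of the 6 libraries, and the other MCS libraries, with 9 and 16 counts, were the lowest. The log2 fold change of Ccne1 was 0.60 ± 0.57 (adjusted p = 0.469), and 1.47 without MCS replicate 1 (adjusted p = 0.113). Ccne2 (ENSMUSG00000028212) had 0.944, 1.22 and 2.37 CPM in MCD replicates 1 to 3, against 1.04, 0.604 and 1.27 CPM in MCS replicates 1 to 3. MCD replicate 3 stood above the rest, the other MCD libraries lay within the MCS range, and the log2 fold change was 0.63 ± 0.51 (adjusted p = 0.394). These values rest on 163 counts of Ccne1 in MCD and 73 in MCS libraries, and on 116 counts of Ccne2 in MCD and 49 in MCS libraries.

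Neither Cip/Kip inhibitor passed. Cdkn1b (ENSMUSG00000003031) had 18.2, 14.3 and 20.6 CPM in MCD replicates 1 to 3, against 16.0, 16.7 and 13.0 CPM in MCS replicates 1 to 3. MCD replicate 2 lay within the MCS range, and the log2 fold change of 0.22 ± 0.18 did not pass (adjusted p = 0.397). The value follows the scaling: with library size alone it was 0.80 ± 0.25 (adjusted p = 0.0326), on the log2(TPM + 1) scale 0.80 ± 0.21 (adjusted p = 0.0176). With TMM but without replicate 3 of both diets it was −0.01 ± 0.17 (adjusted p = 0.984). Cdkn1c (ENSMUSG00000037664), an imprinted gene, had 1.35, 2.17 and 4.32 CPM in MCD replicates 1 to 3, against 1.67, 1.28 and 3.14 CPM in MCS replicates 1 to 3. Replicate 3 was highest in both diets, the diets overlapped, and the log2 fold change was 0.36 ± 0.52 (adjusted p = 0.642; −0.22 without MCD replicate 3). Cdkn1b made up 68.7% to 91.0% of Cip/Kip TPM (without Cdkn1a) in MCD and 76.0% to 90.9% in MCS libraries. From counts its share was 82.7% to 93.1% in MCD and 80.5% to 92.9% in MCS libraries. TPM per CPM of Cdkn1c spanned 1.65-fold between libraries, more than that of 93.0% of tested genes. The Cdkn1a left out had 34.9 ± 10.5 TPM in MCD and 0.667 ± 0.184 TPM in MCS livers.

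Among the 3 INK4 members (Cdkn2d is not one of them) Cdkn2c (ENSMUSG00000028551) made up 96.5% ± 1.56 of their summed TPM in MCD and 99.2% ± 0.774 in MCS livers (SD, n = 3 each). The Cdkn2d left out had 3.35 ± 0.953 TPM in MCD and 3.47 ± 0.833 TPM in MCS livers, so these are not shares of all INK4 transcripts. Cdkn2c had 9.53, 12.4 and 12.3 CPM in MCD replicates 1 to 3, against 5.93, 4.38 and 8.83 CPM in MCS replicates 1 to 3. Every MCD library was above every MCS library, the nearest pair being MCD replicate 1 and MCS replicate 3. The mean was 11.4 ± 1.63 CPM in MCD and 6.38 ± 2.26 CPM in MCS livers (SD, n = 3 each). The log2 fold change of 0.83 ± 0.27 had an adjusted p of 0.0508. It was above 0 in each of 17 other settings (0.62 to 1.5) and passed in 9 of them, for example by DESeq2 (0.82 ± 0.31, adjusted p = 0.0314). In 3 of those 9, library size alone and both TPM scales, the median of all genes was itself 0.53 to 0.65. Of the 6 fits that left out a library, Cdkn2c passed in that without MCS replicate 3 (1.13 ± 0.25, adjusted p = 0.0228), and the others gave adjusted p of 0.0801 to 0.160.

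Cdkn2a (ENSMUSG00000044303) had 3, 3 and 6 counts in MCD replicates 1 to 3, against 0, 0 and 1 in MCS replicates 1 to 3. The ratio of its summed counts, relative to TMM-scaled library size, was 8.01, with a 95% counting interval of 1.18 to 342 (exact binomial). Cdkn2b (ENSMUSG00000073802) had 3, 2 and 12 counts in MCD replicates 1 to 3, against 0, 1 and 0 in MCS replicates 1 to 3, a ratio of 11.3 with an interval of 1.78 to 474. Both genes had more counts in MCD libraries, and most of those of Cdkn2b came from MCD replicate 3. These intervals cover counting error only, and with no count filter neither gene passed (adjusted p = 0.196 for Cdkn2a and 0.158 for Cdkn2b, edgeR). Both are at the limit of what these depths can measure.

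The Cdkn2a count also sums unlike products, since p16 and ARF start at separate first exons and share the next. The promoters of those starts follow (RefSeq, GRCm38.p6, minus strand), with the same words in capitals.
Cdkn2a start at chr4:89282143-89282442: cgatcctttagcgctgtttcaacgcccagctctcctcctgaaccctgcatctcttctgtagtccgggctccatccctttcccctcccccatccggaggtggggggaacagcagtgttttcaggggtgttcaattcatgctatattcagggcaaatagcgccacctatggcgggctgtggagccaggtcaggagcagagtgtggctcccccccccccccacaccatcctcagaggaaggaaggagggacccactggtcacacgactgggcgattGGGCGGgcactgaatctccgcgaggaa
Cdkn2a start at chr4:89294570-89294869: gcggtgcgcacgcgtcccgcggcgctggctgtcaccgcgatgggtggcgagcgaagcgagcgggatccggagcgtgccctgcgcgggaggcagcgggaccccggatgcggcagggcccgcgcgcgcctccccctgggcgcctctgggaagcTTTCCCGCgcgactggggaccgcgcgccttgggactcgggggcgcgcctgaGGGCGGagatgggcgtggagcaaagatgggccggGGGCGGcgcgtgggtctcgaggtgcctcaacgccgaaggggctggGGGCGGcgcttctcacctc
The second of these holds the E2F word TTTCCCGC and 3 GC boxes, and the first holds 1 GC box. A match of letters is a description and shows no binding. The table held 9 promoters for 6 members, Ccnd3, Ccne1, Cdkn1b, Cdkn2a, Cdkn2b and Cdkn2c. Of these 9, the promoter of Cdkn2b held the CRE, and none held an AP-1 word.

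**Figure D3:**
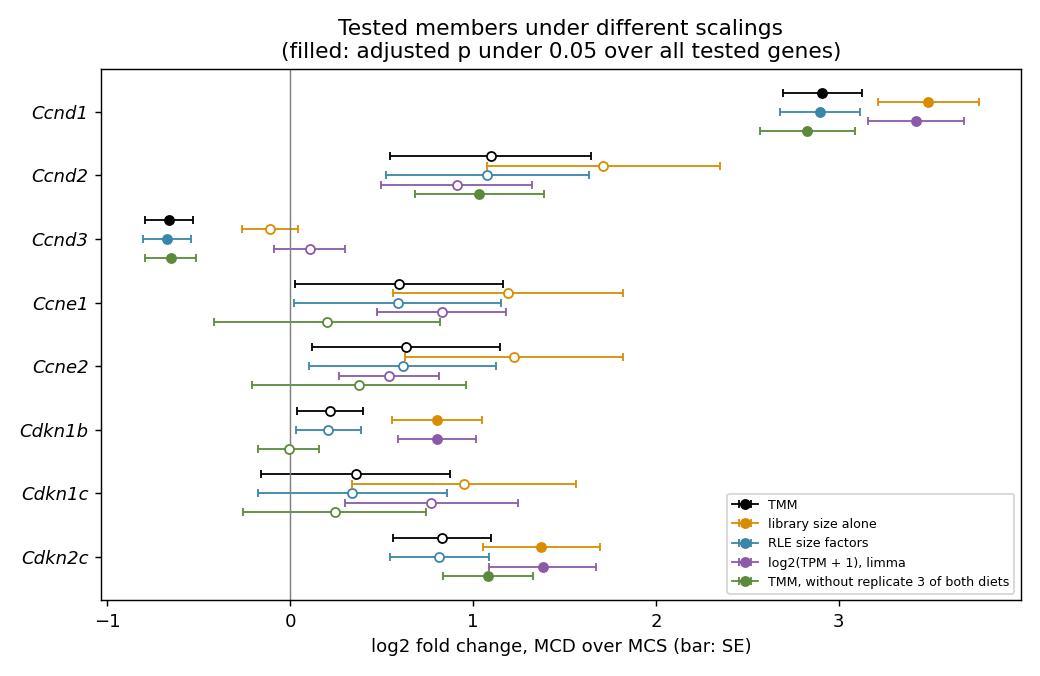
Log2 fold change of MCD over MCS (horizontal axis; bars are SE) for the 8 tested members under 5 settings; filled points have an adjusted p under 0.05 over all tested genes. Ccnd1 lies at 2.83 to 3.49 in each, whereas Ccnd3 lies at −0.67 to −0.65 with composition scaling and near 0 with library size alone or TPM.

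In whole liver, more cells of a type and more RNA per cell cannot be told apart, and markers of other cells moved with the diet. Across all tested genes 14.8% rose and 9.97% fell. Of 10 recruited macrophage markers 10 rose, with a summed level of 1338 to 3531 CPM in MCD and 191 to 198 CPM in MCS libraries. Of 9 stellate cell and fibroblast markers 5 rose and 0 fell (275 to 1276 CPM in MCD, 116 to 174 CPM in MCS), and of 7 cholangiocyte markers 5 rose and 0 fell (214 to 581 CPM in MCD, 58.4 to 85.7 CPM in MCS). Spp1, which is in the macrophage list too and is 1 of those 5, carried most of that sum, with 175 to 522 CPM in MCD and 33.9 to 57.3 CPM in MCS libraries; the other 6 cholangiocyte markers summed to 39.0 to 59.6 CPM in MCD and 24.4 to 28.5 CPM in MCS. Of 8 sinusoidal endothelial markers 0 rose and 0 fell (66.8 to 365 CPM in MCD, 106 to 412 CPM in MCS). Of 8 hepatocyte markers 3 fell and 0 rose, and of 6 Kupffer cell markers 3 fell and 0 rose (219 to 382 CPM in MCD, 296 to 363 CPM in MCS). Of 8 T and NK cell markers 2 rose (5.70 to 15.8 CPM in MCD, 4.54 to 8.22 CPM in MCS), and of 4 tested B cell markers 1 rose (12.8 to 24.5 CPM in MCD, 8.69 to 15.7 CPM in MCS). No marker of these lists was at 0 in all 6 libraries. Among MCD libraries Ccnd1 was lowest in replicate 2, as were the macrophage, stellate, cholangiocyte, endothelial, T and NK cell and B cell sums. Those sums were highest in replicate 3, and Ccnd1 was highest in replicate 1 in CPM but in replicate 3 in TPM (147, 73.2 and 155 TPM in MCD replicates 1 to 3). Unlike them, the Kupffer cell sum was lowest in MCD replicate 1 (219 CPM), and the hepatocyte sum was highest in MCD replicate 2 (99970 CPM). The part of these cells in the changes of the cyclins and inhibitors was not tested.

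Some members followed replicate 3. Ccnd2 in replicate 3 was 2.64 times the mean of the other libraries in MCD and 2.39 times in MCS. Cdkn1c was 2.45 times that mean in MCD and 2.13 times in MCS, and Ccne2 was 2.19 times in MCD and 1.55 times in MCS. The endothelial marker sum was 4.53 times in MCD and 3.30 times in MCS. Over all tested genes the median of this ratio was 1 in MCD and 0.991 in MCS. Ccnd3 (1.02 in MCD and 1.03 in MCS) and Ccnd1 (1.11 in MCD and 0.935 in MCS) lay near that median. The part of the library in these values was not tested.

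**Figure D4:**
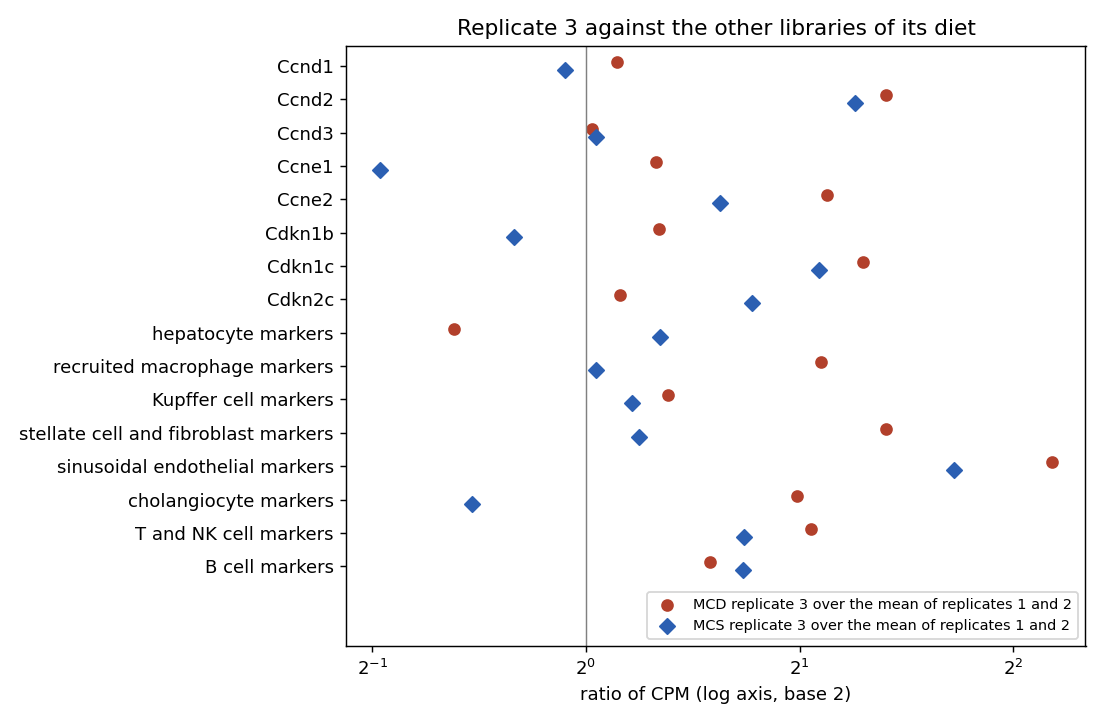
CPM of each tested member, and summed CPM of each marker list, in replicate 3 over the mean of replicates 1 and 2 of the same diet (log axis, base 2; circles MCD, diamonds MCS). Ccnd2, Cdkn1c and the endothelial markers lie at 2.13 or above in both diets, while Ccnd1 and Ccnd3 lie near 1.

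Among the other genes of G1 control, the shares that rose and fell lay near those of all genes. Of 39 such genes 38 were tested (E2f7 was too low); 7 rose (18.4%, against 14.8% of all tested genes), 4 fell (10.5%, against 9.97%) and 27 did not pass, and their median log2 fold change was 0.18. Of the kinases, Cdk6 rose by 0.54 ± 0.13 (adjusted p = 0.0163), with 32.1 to 34.9 CPM in MCD and 21.3 to 25.2 CPM in MCS libraries, but its call was lost in log2(TPM + 1) values (adjusted p = 0.0921) and without MCD replicate 1, MCS replicate 2 or MCS replicate 3 (adjusted p = 0.0777, 0.0862 and 0.0502). Cdk4, the main partner of the D-type cyclins in many tissues, had 42.5, 40.9 and 48.1 CPM in MCD and 42.0, 43.0 and 48.4 CPM in MCS replicates 1 to 3 (−0.02 ± 0.13, adjusted p = 0.923). Cdk2, the partner of the E-type cyclins, did not pass either (−0.29 ± 0.23, adjusted p = 0.376). Among the inhibitors outside the 10 genes, Cdkn1a (p21) rose by 4.95 ± 0.22 (adjusted p = 2.72e-05) to 24.4 to 32.1 CPM in MCD libraries, against 0.756 to 1.16 CPM in MCS libraries, and the INK4 gene Cdkn2d had −0.76 ± 0.32 (adjusted p = 0.116).

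Among the pocket proteins, the RB relatives through which the cyclins act, Rbl1 (p107) rose by 2.19 ± 0.41 (adjusted p = 0.00749), with 3.57 to 8.43 CPM in MCD and 1.05 to 1.96 CPM in MCS libraries. Rbl2 (p130), the relative typical of quiescent cells, fell by 0.47 ± 0.12 (adjusted p = 0.0206), with 35.7 to 38.4 CPM in MCD and 50.03 to 53.2 CPM in MCS libraries, but its value was 0.087 with library size alone and 0.19 on the log2(TPM + 1) scale, and it did not pass without MCD replicate 1, MCS replicate 1 or MCS replicate 2 (adjusted p = 0.0993, 0.0868 and 0.0767). Rb1 did not pass (0.75 ± 0.28, adjusted p = 0.0792). Of 9 tested E2F and DP factors 2 rose: E2f1, an activator of S phase genes (1.18 ± 0.34, adjusted p = 0.0365), and its partner Tfdp1 (0.49 ± 0.14, adjusted p = 0.0387). Of the 6 fits that left out a library, E2f1 passed in that without MCD replicate 2 and Tfdp1 in that without MCD replicate 3, and in the others the adjusted p was 0.0504 to 0.122 for E2f1 and 0.0748 to 0.132 for Tfdp1.

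Of 8 genes for the turnover of cyclins and inhibitors 0 rose and 1 fell, Fbxo31, an F-box protein reported to target cyclin D1 (−1.14 ± 0.32, adjusted p = 0.0366). MCD replicates 1 to 3 had 27.2, 52.4 and 20.0 CPM of it, against 70.5, 75.2 and 73.4 CPM in MCS replicates 1 to 3. The call of Fbxo31 was lost with library size alone and with no count filter (adjusted p = 0.0538 and 0.0537), and of the fits that left out a library it passed in that without MCD replicate 2 (0.0526 to 0.120 in the others). Of 8 upstream regulators 2 rose and 2 fell. Myc rose by 2.67 ± 0.25 (adjusted p = 0.000427), with 18.5 to 23.2 CPM in MCD and 2.096 to 3.78 CPM in MCS libraries, and Klf6, a zinc finger factor, rose by 3.002 ± 0.30 (adjusted p = 0.000601). Foxo1 and Foxo3, factors that activate Cdkn1b in other settings, fell by 0.76 ± 0.14 and by 0.54 ± 0.16 (adjusted p = 0.00606 and 0.0363), but with library size alone Foxo1 was at −0.22 and Foxo3 at 0.012. Foxo3 passed in 1 of the 6 fits that left out a library, that without MCD replicate 1 (adjusted p = 0.0513 to 0.141 in the others).

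Genes of S phase and mitosis rose together: 14 of 15 rose, 0 fell and Tyms, at 0.18 ± 0.19, did not (adjusted p = 0.526). Across all tested genes 14.8% rose and 9.97% fell. The median log2 fold change of the 15 was 2.55, against 0.01 for all tested genes. Several of these values rest on few counts summed over MCS libraries: 5 for Ccnb1, 15 for Ccnb2 and 16 for Mki67. Top2a had 25 counts there, and Cdk1 and Ccna2 had 26 each. Cdk1, the kinase of mitosis, had 5.801, 3.30 and 5.22 CPM in MCD replicates 1 to 3, against 0.690, 0.529 and 0.386 CPM in MCS replicates 1 to 3 (3.15 ± 0.41, adjusted p = 0.00158). The replication helicase subunits Mcm3 and Mcm6 rose by 2.01 ± 0.27 and 2.66 ± 0.36 (adjusted p = 0.00191 and 0.00225). Like Ccnd1 and like the cell type sums given above that were lowest there, all 3 were lowest in replicate 2 among MCD libraries. These lists were chosen with earlier results of these data known.

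**Figure D5:**
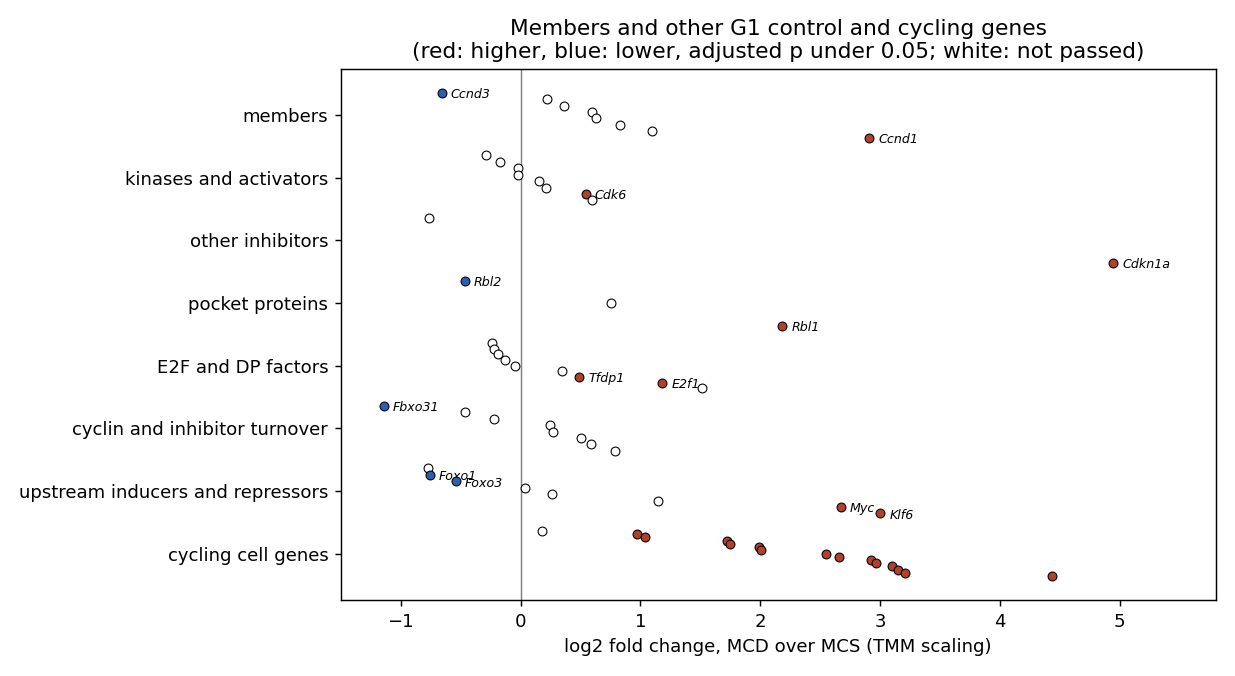
Log2 fold change of MCD over MCS with TMM scaling for the tested members and the other lists of G1 control and cycling genes; each point is a gene, red where it rose, blue where it fell and white where it did not pass. Ccnd1 at 2.91 lies away from the other members, near Klf6 (3.002) and Myc (2.67) and within the wide span of the cycling cell genes (0.18 to 4.44, median 2.55). The 4.44 is that of Ccnb1, which had 5 counts in MCS libraries.

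Likeness to the called members was measured as the root mean square difference of log2 CPM, centred per gene, over the 6 libraries, among 9004 genes of at least 5 CPM. The genes most like Ccnd1 were Sema3b, a secreted semaphorin (0.105; 12.1, 6.61 and 10.2 CPM in MCD and 1.32, 1.51 and 1.32 CPM in MCS replicates 1 to 3), and the calcium-binding S100a11 (0.216). Those most like Ccnd3 were Pnrc1, a nuclear receptor coactivator (0.0686), and Abhd18 (0.0688). Their log2 fold changes were 2.80, 2.93, −0.69 and −0.58.

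Neighbouring genes can share reads with a member, since the sources used here do not say whether strand was kept. In RefSeq's GRCm38.p6 order, LTO1 overlaps Ccnd1, Bysl overlaps Ccnd3 and Ints8 overlaps Ccne2. The lncRNAs 9330179D12Rik (beside Ccnd2), Gm41590 (Ccnd3), A630034I12Rik (Ccne2) and Gm12610 (Cdkn2b) overlap members too, were not matched in the deposited table and are not analysed here. None of the 3 coding neighbours passed: LTO1 had −0.20 ± 0.22 (600 counts in MCD and 467 in MCS libraries), Bysl −0.06 ± 0.19 (863 and 610 counts) and Ints8 0.07 ± 0.29 (490 and 296 counts; adjusted p = 0.523, 0.837 and 0.875). For Ccne2, with 116 counts in MCD and 49 in MCS libraries, the share of reads from Ints8 was not tested, so the level is uncertain.

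In the authors' deposited table, whose fold changes are ratios of mean TPM, Ccnd1 had a log2 fold change of 3.62 (false discovery rate 3.66e-36). The authors' deposited table also gave a false discovery rate under 0.05 to Ccnd2 (1.53, 0.00575), Cdkn1b (0.91, 0.0247) and Cdkn2c (1.44, 0.00253), none of which passed here, and not to Ccnd3 (0.14, 0.873).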

How the data were processed

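Liver polyA RNA of 6 libraries was compared, 3 per diet, grouped by the diet in their titles. Per the submitters' processing notes, the tools included HISAT2 2.1.0, StringTie 1.3.1, RSEM, fastp 0.18.0 and Bowtie2 2.2.8, and the build was GRCm39; the role of each tool is not stated. Per the file headers, the deposited table gives counts and TPM per gene and library, the authors' mean TPM, log2 fold change, p-value and FDR; which test gave the p-value is not stated. The deposited counts are whole, but 64 cells pair a count of 0 with a TPM above 0, and were treated as rounded estimated counts.

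Counts were tested in R 4.3.3 with edgeR 4.0.16 (filterByExpr, minimum count 10, TMM, robust quasi-likelihood fit, diet as its only term), leaving 12599 of 21899 genes. Alternatives used DESeq2 1.42.0 and limma 3.58.1, other scalings, filters and pseudocounts, a replicate block, and left-out libraries. Replicates of a diet all differed beyond sampling noise (chi-square over its degrees of freedom, 13.7 to 151). The script was tested on simulated data. Promoters came from RefSeq's GRCm38.p6 table by symbol. The genes named are the 10 members and, per list, the called genes with the smallest p, up to 3 in the main direction and 2 in the other; Cdk2, Cdk4, Cdkn2d, Rb1 and Tyms were named after their values were seen. Members and lists were chosen with earlier results of these data known.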

Additional observations from a re-analysis of the deposited data

How the results depend on the processing

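Both the scaling and single libraries moved calls. With library size alone, on the log2(TPM + 1) scale and on the log2(TPM + 0.1) scale, 5095, 5449 and 5718 genes rose and 348, 264 and 274 fell (1861 and 1256 with TMM), and 20, 18 and 19 G1 control genes rose and 0, 1 and 1 fell (7 and 4 with TMM). Under each of these 3 settings 3 members rose and 0 fell. By DESeq2, with no count filter and with a minimum count of 30, 2 members rose, and without replicate 3 of both diets 3 did. At adjusted p under 0.01, 754 genes rose and 304 fell, and 4 G1 control genes rose and 1 fell. The signs of called genes turned for Ccnd3 on the TPM scales (0.11 and 0.11), and for Rbl2 (0.087, 0.19 and 0.20) and Foxo3 (0.012, 0.12 and 0.12) with library size alone and on the TPM scales; the medians of all genes there were 0.57, 0.53 and 0.65. Shares from counts without length correction were 84.4% for Ccnd1, 4.07% for Ccnd2 and 11.5% for Ccnd3 in MCD, 37.1%, 6.25% and 56.7% in MCS, and 1.36% for Cdkn2a in MCD. With 1 library left out, 946 to 2363 genes rose and 400 to 2072 fell, 1 to 2 members rose and 0 to 1 fell, 4 to 8 G1 control genes rose and 1 to 5 fell, and 12 to 14 cycling genes rose and 0 fell. The labels give replicate numbers but no pairing. Deviations of libraries with the same number correlated weakly (r = 0.06, 0.15 and 0.25 for numbers 1 to 3). For each MCD library the same number gave the highest correlation, but MCS replicate 1 correlated best with MCD replicate 2 (0.13). Whether the numbers pair the libraries is thus not settled. With the replicate block 1987 genes rose and 1296 fell. The block gave 3 members that rose, with Ccnd2 (adjusted p = 0.0320) and Cdkn2c (adjusted p = 0.0400) among them. The cause of these moves was not tested.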

Other observations

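Set against the kinases within each library, Ccnd1 shifted by amounts that no scaling of a library can change. The ratio of Ccnd1 to Cdk4 in TPM was 2.53 ± 0.626 in MCD and 0.325 ± 0.0538 in MCS livers, and that of Ccnd1 to Cdk6 was 15.1 ± 0.763 in MCD and 2.12 ± 0.420 in MCS livers (SD, n = 3 each). The length correction moved the Cdk6 ratio, whose log2 value differed between the diets by 2.85 in TPM and by 2.33 in counts. For Cdk4 these differences were 2.95 and 2.90. Among the inhibitors, only Cdkn1b and Cdkn2c were set against Ccnd1. The ratio of Ccnd1 to Cdkn1b was 7.996 ± 1.34 in MCD and 1.25 ± 0.0936 in MCS livers. That of Ccnd1 to Cdkn2c was 6.33 ± 2.43 in MCD and 1.58 ± 0.712 in MCS livers. No ratio to Cdkn1a was computed, and the log2 fold change of Cdkn1a (4.95 ± 0.22) was above that of Ccnd1 (2.91 ± 0.22). Each log2 ratio had p = 0.1 in an exact two-sided permutation test, the smallest that 3 against 3 libraries allow. The ratios computed were 5, that of Ccnd1 to Ccnd3 among them. For Ccnd1 to Ccnd3 in counts, that p was fixed by the choice of genes. A ratio shows unequal change and not which of the genes changed.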
